A study of Mus musculus with 6 samples.

Results

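The genes described here are 10 transcription factors of the neural plate and of its patterning along the axis from roof to floor: Sox1, Sox2, Sox3, Pax3, Pax6, Pax7, Olig3, Irx3, Irx5 and Nkx6-1. They were chosen by symbol from 18194 named genes and are read by 19 of the 34958 probe sets that carry a single symbol. RNA came from Noto-GFP heterozygous mouse embryos of mixed 129S3;ICR background and mixed sex, at embryonic day 8.5 with a median of 6 somites. Noto is a homeobox gene of the node and of notochord progenitors, and GFP stood as its reporter. GFP-positive cells were sorted from trypsin-dissociated tissue lying behind the boundary between somites SI and SII. GFP-negative cells were the remaining cells of the same tissue, a mixture of cell types. Both sorts came from each of 3 pools of 23, 39 and 52 embryos, which gave 3 GFP-positive and 3 GFP-negative arrays. The GFP-positive sorts held about 2600, 4300 and 6600 cells.

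The neural plate is the sheet of ectoderm that folds into the neural tube, and SoxB1 factors (Sox1, Sox2 and Sox3) keep its cells as dividing progenitors before they become neurons. The notochord lies beneath its midline and secretes Shh, which induces ventral factors such as Nkx6-1 and represses factors of more dorsal cells, among them Pax3 and Pax7. Pax6, Irx3 and Irx5 mark broad fields between the poles, and Olig3 marks dorsal progenitors. Several members are also known outside the neural plate: Pax3 and Pax7 in somites, and Sox2 in foregut and germ cells.

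Of the members, Irx3 was higher and Pax6 and Olig3 were lower in GFP-positive cells when the sorts were compared within each embryo pool, and none was called when the pools were left out of the model. A probe set counted as measurable if it was at or above the 40th percentile of its array on at least 3 arrays, and the brightest such probe set stood for its gene. Fold changes are differences of log2(intensity + 32). Of the 9 genes with a measurable probe set, limma, a linear model fitted over all 12628 genes, called 0 higher and 0 lower in GFP-positive cells (adjusted p below 0.05). In the same fit 2.95% of all genes were higher and 1.71% lower. Before adjustment p was below 0.05 for Irx3 and Nkx6-1 (higher) and for Pax6 and Olig3 (lower), 2 of 9 each way, against 12.7% of all genes higher and 10% lower. The median log2 fold change of the 9 was -0.08, against 0.01 over all genes. With the pool as a block, which compares the sorts within each embryo pool, Irx3 rose and Pax6 and Olig3 fell in GFP-positive cells. That fit called 7.76% of all genes higher and 5.99% lower, beside 1 of 9 and 2 of 9 members, counts for which no test was made. Among the 12 member probe sets that passed the filter on low values, the groups did not overlap in 4 that were lower (Sox1, Pax6, Olig3 and Irx5) and 2 that were higher (Irx3 and Nkx6-1). Over all 27821 filtered probe sets those shares were 12.8% lower and 11.9% higher. Ranked within arrays, the groups overlapped for Sox1 and for Irx3. By gene, 4 of 9 were lower in all 3 pools (the same 4) and 3 were higher in all 3 (Pax3, Irx3 and Nkx6-1), against 24.9% and 28.4% of all genes. Nkx6-1 passed the filter only through the GFP-positive arrays, so a difference was built into its selection. Its place in these counts of higher genes carries that limit.

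**Figure D1:**
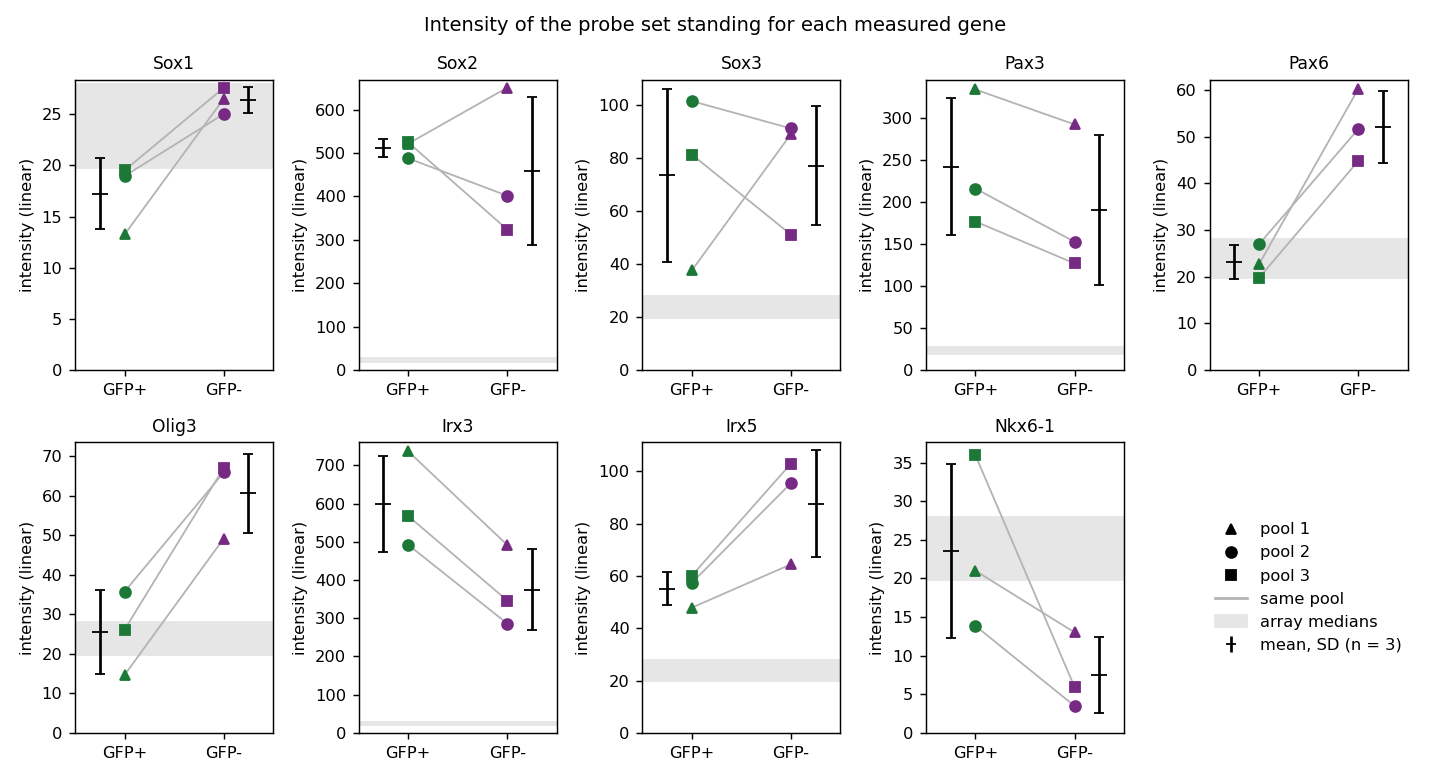
Intensity on a linear scale (vertical axis, starting at 0) in GFP-positive arrays (left, green) and GFP-negative arrays (right, purple) for the probe set that stands for each of the 9 measured genes. Symbols mark pools, grey lines join arrays of a pool, black bars give mean and SD over 3 arrays, and the grey band spans the 6 array medians, between 19.8 and 28.0. Irx3 was higher and Olig3 and Pax6 lower in GFP-positive arrays of every pool, while the lines of Sox2 and Sox3 cross.

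Both arrays of pool 1 stood apart before any comparison. Their beta-actin 3′ over 5′ signal ratios, a measure of RNA quality, were 14.9 in GFP-positive and 22.7 in GFP-negative cells, while the other arrays had 1.90 to 2.75. The GFP-negative array of pool 1 correlated at 0.964 with the GFP-positive array of its pool, and at 0.938 and 0.914 with the other GFP-negative arrays, over 27821 probe sets. For this reason values without pool 1 are given beside those that change. Without pool 1, Sox2 and Irx3 were higher and Pax6, Olig3 and Irx5 lower, in a fit that called 20.1% of all genes higher and 18.2% lower. With the block as well, Pax3 joined the higher genes (0.41, adjusted p = 0.0405), and the shares of all genes were 23.2% and 21.7%. Only pools 2 and 3 entered these fits, and with the block little of the spread could be estimated from a gene alone. This Pax3 call is for the probe set that stood for the gene. A second Pax3 probe set was lower in pools 2 and 3, by log2 differences of -0.95 and -1.13. Whether RNA quality had a part in what changed without pool 1 was not tested. In a mixture of cells, fewer cells of a type and less RNA per cell cannot be told apart.

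The sequences of 250 bases before the transcription start are shown for Irx3, Olig3 and Pax6, the 3 genes called with the pool as a block; Pax6 has 2 starts in the table. They are from a table of RefSeq promoters (GRCm38.p6) that holds 7 of the 10 members. Capitals mark matches, on either strand, to TATAAA as found in promoter core boxes, to CCAAT as bound by NF-Y, to ACAAAG as the core shared by SOX and TCF factors, to TAATTA as the homeodomain core, or to GACCACCCA as the site of GLI factors, which carry the Shh signal. The windows are chr8:91801655-91801904 on the minus strand for Irx3, chr10:19356289-19356538 on the plus strand for Olig3, and chr2:105668646-105668895 and chr2:105682213-105682462 on the plus strand for Pax6.
Irx3: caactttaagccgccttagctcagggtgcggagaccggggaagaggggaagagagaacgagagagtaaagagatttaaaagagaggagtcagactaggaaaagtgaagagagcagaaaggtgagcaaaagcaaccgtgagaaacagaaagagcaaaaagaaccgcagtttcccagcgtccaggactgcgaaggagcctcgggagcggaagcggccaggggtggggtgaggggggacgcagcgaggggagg
Olig3: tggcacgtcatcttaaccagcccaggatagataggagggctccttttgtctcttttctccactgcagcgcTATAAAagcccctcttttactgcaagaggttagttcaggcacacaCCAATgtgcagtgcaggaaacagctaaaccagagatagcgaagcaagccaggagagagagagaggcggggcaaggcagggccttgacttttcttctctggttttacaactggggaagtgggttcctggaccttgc
Pax6 first start: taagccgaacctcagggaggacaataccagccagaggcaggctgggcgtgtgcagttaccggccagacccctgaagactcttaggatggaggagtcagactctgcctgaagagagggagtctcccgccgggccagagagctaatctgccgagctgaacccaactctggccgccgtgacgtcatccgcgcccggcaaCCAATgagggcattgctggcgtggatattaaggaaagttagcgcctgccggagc
Pax6 second start: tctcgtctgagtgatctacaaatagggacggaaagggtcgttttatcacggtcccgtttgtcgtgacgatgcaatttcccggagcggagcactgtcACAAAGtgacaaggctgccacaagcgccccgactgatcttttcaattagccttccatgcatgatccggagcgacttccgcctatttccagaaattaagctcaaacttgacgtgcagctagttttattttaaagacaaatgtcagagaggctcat

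Olig3 had TATAAA at -180 to -175 from its start and CCAAT at -135 to -131. The first start of Pax6 had CCAAT at -54 to -50, and its second start ACAAAG at -154 to -149. No marked matches overlapped. Among 32851 windows of this length in the table, TATAAA occurred in 12.4%, CCAAT in 33.8%, ACAAAG in 16.5%, TAATTA in 4.84% and GACCACCCA in 0.225%. The Irx3 window held none of these letters, and none of the 8 member windows held TAATTA or GACCACCCA. A match is a description of letters only.

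Sox2, the SoxB1 factor of the early neural plate, had intensities of 522, 488 and 524 in GFP-positive cells of pools 1, 2 and 3, against 651, 402 and 324 in GFP-negative cells. The GFP-positive arrays were close to each other, and the GFP-negative arrays spread on both sides of them, so the groups overlapped. The mean was 511 ± 20.4 in the GFP-positive group and 459 ± 171 in the GFP-negative group (SD, n = 3 each). The log2 fold change was 0.20 ± 0.26 (SE, adjusted p = 0.682), with a 95% interval from -0.40 to 0.80. Within pools the log2 difference was -0.30, 0.26 and 0.64. Pool 1 alone had the lower GFP-positive value. Without pool 1 Sox2 was higher at 0.45 ± 0.15 (adjusted p = 0.0397). Without pool 3 it was -0.020.

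Sox3, a close relative of Sox2 in the same progenitors, had 37.6, 101 and 81.2 in GFP-positive cells, against 88.9, 91.0 and 51.1 in GFP-negative cells. The groups overlapped, and pool 1 again ran opposite to the other pools, with log2 differences of -0.80, 0.12 and 0.45. The fitted log2 fold change came to -0.08 ± 0.28 (SE, adjusted p = 0.894), with a 95% interval from -0.73 to 0.57, and its sign turned without pool 1, at 0.28 ± 0.21 (adjusted p = 0.331). The second Sox3 probe set did not reach the 40th percentile on any of the 6 arrays. Its values lay between 1.55 and 3.07 on GFP-positive arrays and between 2.64 and 18.3 on GFP-negative ones.

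Sox1, the SoxB1 factor that marks the committed neural plate, was dim on all arrays. Its brighter probe set had 13.3, 19.0 and 19.5 in GFP-positive cells, against 26.5, 25.0 and 27.6 in GFP-negative cells. The intensities of the groups did not overlap, but the values lay near the array medians. There, background cannot be told from signal because no detection calls were used. Percentiles within arrays were 39.1, 48.8 and 49.73 for GFP-positive and 52.6, 51.2 and 49.66 for GFP-negative cells, so the groups overlapped by rank. In the fit, the log2 fold change was -0.25 ± 0.14 (SE, adjusted p = 0.32), and the adjusted p was 0.30 with the pool as a block. After quantile normalization the limma fit gave -0.14 (adjusted p = 0.575). The other Sox1 probe set was at or above the 40th percentile on 1 array and was not tested.

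Irx3, a homeodomain factor of the lateral and intermediate neural tube, was higher in GFP-positive cells of all 3 pools. It had 737, 492 and 568 in GFP-positive cells, against 492, 286 and 346 in GFP-negative cells. Within pools the intensity ratios were 1.5, 1.72 and 1.64, and the lowest GFP-positive array nearly touched the highest GFP-negative one. By percentile within arrays the groups overlapped, with 89.8 in GFP-positive cells of pool 2 against 90.1 in GFP-negative cells of pool 1. The mean was 599 ± 125 on GFP-positive arrays and 375 ± 106 on GFP-negative ones (SD, n = 3 each). Its log2 fold change was 0.65 ± 0.26 (SE, adjusted p = 0.183) without the block and 0.65 ± 0.16 (SE, adjusted p = 0.0362) with the pool as a block. It was 0.69 ± 0.15 without pool 1 (adjusted p = 0.00724).

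Irx5, which stands next to Irx3 among the protein-coding genes of chromosome 8 in the RefSeq table, with Irx6 after it, differed in the other direction. It had 47.9, 57.4 and 60.1 in GFP-positive cells, against 64.4, 95.4 and 103 in GFP-negative cells. All GFP-positive arrays were below all GFP-negative ones, by ratios of 0.743, 0.601 and 0.584 within pools. The log2 fold change was -0.44 ± 0.19 (SE, adjusted p = 0.222), with a 95% interval from -0.89 to 0.00, and the adjusted p was 0.105 with the pool as a block. Without pool 1 Irx5 was lower at -0.53 ± 0.16 (adjusted p = 0.0276). Irx3 and Irx5 thus had opposite signs in 3 of 3 pools. The difference between the fold changes of both genes was not tested.

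**Figure D2:**
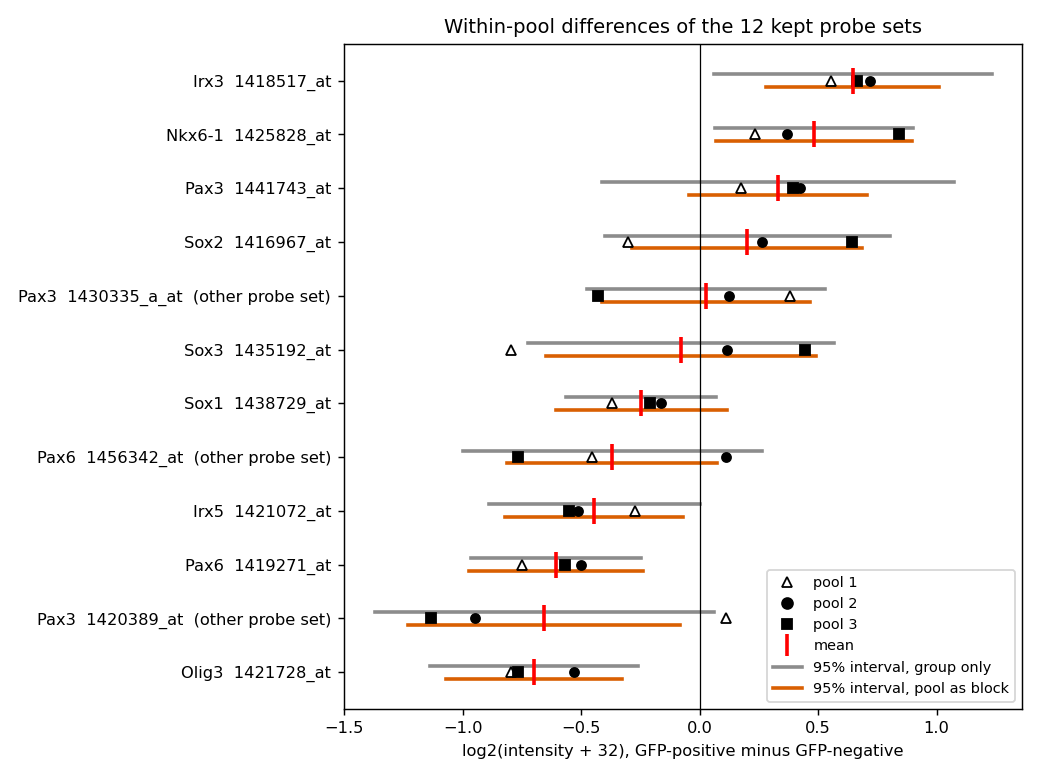
Differences of log2(intensity + 32), GFP-positive minus GFP-negative (horizontal axis), for the 12 member probe sets that passed the filter, with 1 symbol per pool and the mean as a red bar. Grey lines are 95% intervals of the fit with group only and orange lines those with the pool as a block. Irx3 lies right of 0 in all pools, Olig3, Irx5, Sox1 and the main Pax6 probe set lie left of 0, and pool 1 (open triangles) falls on the other side from pools 2 and 3 for Sox2 and Sox3.

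Pax6, a paired-box factor of intermediate neural progenitors, had 22.7, 27.0 and 19.8 in GFP-positive cells, against 60.1, 51.6 and 44.7 in GFP-negative cells. The GFP-positive values lay at percentiles 49.8 to 54.8 of their arrays and the GFP-negative values at percentiles 59.5 to 66.3. The groups did not overlap, and the ratios within pools were 0.378, 0.523 and 0.442. The mean was 23.1 ± 3.63 on GFP-positive arrays and 52.1 ± 7.71 on GFP-negative ones (SD, n = 3 each). Fitted over all genes, the log2 fold change was -0.61 ± 0.16 (SE, adjusted p = 0.0676) without the block. The adjusted p was 0.0439 with the pool as a block. After quantile normalization, limma without the block gave -0.52 (adjusted p = 0.109). The block was not fitted to quantile-normalized values. On the log2(intensity + 32) scale the change of such a dim gene is understated. Of its 4 other probe sets 1 passed the filter, on 3 arrays, at -0.37 ± 0.28 (SE, adjusted p = 0.502 over probe sets), with signs of lower, higher and lower in pools 1, 2 and 3.

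Olig3, a basic helix-loop-helix factor of dorsal progenitors, showed the same direction. It had 14.7, 35.8 and 26.2 in GFP-positive cells, against 49.2, 65.9 and 67.0 in GFP-negative cells. No GFP-positive array reached the lowest GFP-negative one, and ratios within pools were 0.298, 0.543 and 0.39. The values lay at percentiles 41.3 to 59.3 of the GFP-positive arrays and 63.3 to 67.0 of the GFP-negative arrays. As for Sox1 and for Pax6, the GFP-positive values lay in the range where background cannot be told from signal, so these ratios are approximate. The mean was 25.5 ± 10.6 on GFP-positive arrays and 60.7 ± 10.001 on GFP-negative ones (SD, n = 3 each). The log2 fold change was -0.70 ± 0.19 (SE, adjusted p = 0.0802) without the block. The adjusted p was 0.0308 with the pool as a block and 0.0171 without pool 1, at -0.65. Quantile normalization gave -0.62 in limma without the block (adjusted p = 0.106), and was not combined with the block.

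Pax3, a dorsal factor that also marks the dermomyotome of somites, gave probe sets that disagreed. The probe set that stood for the gene had 334, 216 and 177 in GFP-positive cells, against 292, 153 and 127 in GFP-negative cells. It was higher in GFP-positive cells of every pool, but the pools differed by more than the sorts, so the groups overlapped. Its log2 fold change was 0.33 ± 0.33 (SE, adjusted p = 0.579), with an adjusted p of 0.197 with the pool as a block.

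The second Pax3 probe set had 108, 61.7 and 96.8 in GFP-positive cells, against 97.5, 149 and 251 in GFP-negative cells. It was lower in GFP-positive cells of pools 2 and 3, by log2 differences of -0.95 and -1.13, and higher by 0.11 in pool 1. Its log2 fold change was -0.66 ± 0.31 (SE, adjusted p = 0.3 over probe sets), and 0.125 was the adjusted p with the pool as a block. The third had 30.2, 34.7 and 30.3 in GFP-positive cells, against 15.7, 29.2 and 51.8 in GFP-negative cells, at 0.03 ± 0.22 (SE, adjusted p = 0.962 over probe sets). The mean over the 3 probe sets gave -0.10, the reverse of the first alone, so the direction for Pax3 rests on the choice of probe set. The names of the probe sets come from the platform annotation, and which transcripts each reads was not examined.

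**Figure D3:**
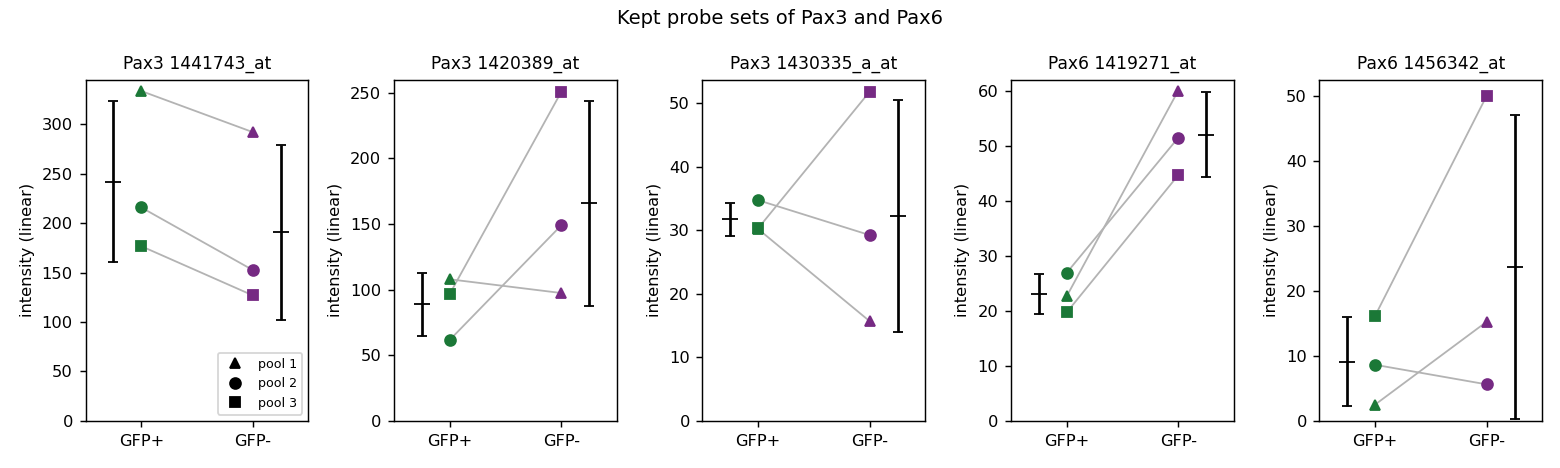
Intensity on a linear scale (vertical axes, starting at 0) of the 3 filtered probe sets of Pax3 and the 2 of Pax6, GFP-positive arrays left (green) and GFP-negative arrays right (purple). Symbols mark pools, grey lines join arrays of a pool, and black bars give mean and SD over 3 arrays. The first Pax3 probe set runs downward from GFP-positive to GFP-negative cells in all pools, whereas the second runs upward in pools 2 and 3.

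Pax7, the close relative of Pax3 in dorsal neural tube and somites, was not measurable. Its brighter probe set had 2.46, 14.6 and 8.68 in GFP-positive cells, against 23.3, 12.5 and 14.6 in GFP-negative cells. It reached the 40th percentile on 2 arrays, 1 short of the 3 the filter required, and the groups overlapped. The other Pax7 probe set reached it on 0 arrays.

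Nkx6-1, a homeodomain factor of ventral progenitors that Shh induces, had 21.0, 13.9 and 36.0 in GFP-positive cells, against 13.0, 3.49 and 5.96 in GFP-negative cells. Each GFP-positive array was above every GFP-negative array. The values lay at percentiles 42.8 to 59.7 of the GFP-positive arrays and 16.7 to 37.2 of the GFP-negative arrays. The probe set passed the filter on 3 arrays, those of the GFP-positive cells, so a difference was built into its selection. Its log2 fold change was 0.48 ± 0.18 (SE, adjusted p = 0.168), with an adjusted p of 0.108 with the pool as a block. Without pool 1, 2 or 3 the probe set did not pass the filter.

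Genes whose values followed those of a member most closely were sought for the 3 members that spanned at least 1 log2 unit over the 6 arrays. Likeness was the distance between centred log2 values over these arrays, among 4476 other genes with that span. For Irx3 the nearest were Slc16a9, Otud1 and Adcy2 (distances 0.138, 0.186 and 0.189). For Olig3 they were Lix1, Setd5 and Nol3 (0.135, 0.189 and 0.196), and for Pax3 Lrp4, Mfhas1 and Wdr44 (0.077, 0.124 and 0.14). None of these 9 genes passed over all genes in limma. With 6 arrays from 3 pools, this is a description of a shared pattern.

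Calls in the gene lists below are to be read beside those over all genes, 2.95% higher and 1.71% lower, or 7.76% and 5.99% with the pool as a block; no list was tested. Of 22 listed genes of neural progenitors 17 were measured, and of these 2 were higher, 1 was lower and 14 did not pass, with a median log2 fold change of 0.18. Dll1, a Notch ligand, rose by 1.11 ± 0.21 (SE, adjusted p = 0.026), to 1717 ± 295 in GFP-positive against 773 ± 101 in GFP-negative arrays (SD, n = 3 each). Fabp7, a fatty acid binding protein of radial progenitors, rose by 1.4 ± 0.27 (SE, adjusted p = 0.0295). Nkx1-2, a homeodomain factor of the caudal preneural plate, fell by 1.44 ± 0.31 on the log2 scale (adjusted p = 0.0419), to 712 ± 274 in GFP-positive against 1900.2 ± 295 in GFP-negative arrays. With the pool as a block 5 were higher and 2 lower, the added genes being Hes5, Gbx2 and Cdh2 (higher) and Zic5 (lower).

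Of 22 ventral neural tube and hedgehog genes 16 were measured, of which 6 were higher, 1 lower and 9 did not pass, with a median of 0.46. Foxa2 and Foxa1, forkhead factors of floor plate and notochord, rose by 3.64 ± 0.23 and 4.13 ± 0.27 on the log2 scale, and Shh by 4.45 ± 0.58 (SE; adjusted p = 0.000317, 0.000317 and 0.00694). Netrin-1, the guidance cue that Ntn1 encodes, rose by 1.71 ± 0.24 (adjusted p = 0.00973). Shh, Foxa1 and Foxa2 are also in the node and notochord list. The others were Foxc1 and Smo, the hedgehog signal transducer (both higher), and Hhip, a hedgehog antagonist (lower). Foxc1 is a factor of paraxial mesoderm and is also in the presomitic and somite list. Nkx6-2, Olig1, Olig2, Dbx1 and Dbx2, factors of ventral and intermediate progenitors, had no measurable probe set.

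Of 20 dorsal neural tube genes 14 were measured, of which 1 was higher, 4 were lower and 9 did not pass, with a median of -0.59. Snai2, a factor of migrating crest and mesenchyme, fell by 2.83 ± 0.30 on the log2 scale (adjusted p = 0.00305), and Tfap2a, of crest and surface ectoderm, by 1.39 ± 0.17 (adjusted p = 0.00591). Msx1 fell as well. The other lower gene was Dlx5, with 1.20, 5.75 and 1.18 in GFP-positive cells against 25.1, 39.1 and 32.97 in GFP-negative cells; it passed the filter only through the GFP-negative arrays, so a difference was built into its selection. Tfap2a, Msx1 and Dlx5 are also in the surface ectoderm list below, so the lower calls of both lists are not separate. Bmp7, a ligand of dorsal midline and notochord, rose by 1.05 ± 0.18 (adjusted p = 0.0174). Of 17 paralogues of the members 5 were measured and 0 passed in limma. Before adjustment p fell below 0.05 for Sox21 (higher) and Pax5 (lower), 1 each. Sox21 had 0.44 ± 0.19 and Pax5 -0.37 ± 0.15 (adjusted p = 0.219 and 0.207). Of 17 tail bud genes 16 were measured, of which 3 were higher and 1, Nkx1-2, was lower. On the log2 scale Sp5 rose by 1.97 ± 0.22, Mixl1 by 1.68 ± 0.18 and Fgf8 by 1.06 ± 0.20 (adjusted p = 0.00325, 0.00329 and 0.0251).

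**Figure D4:**
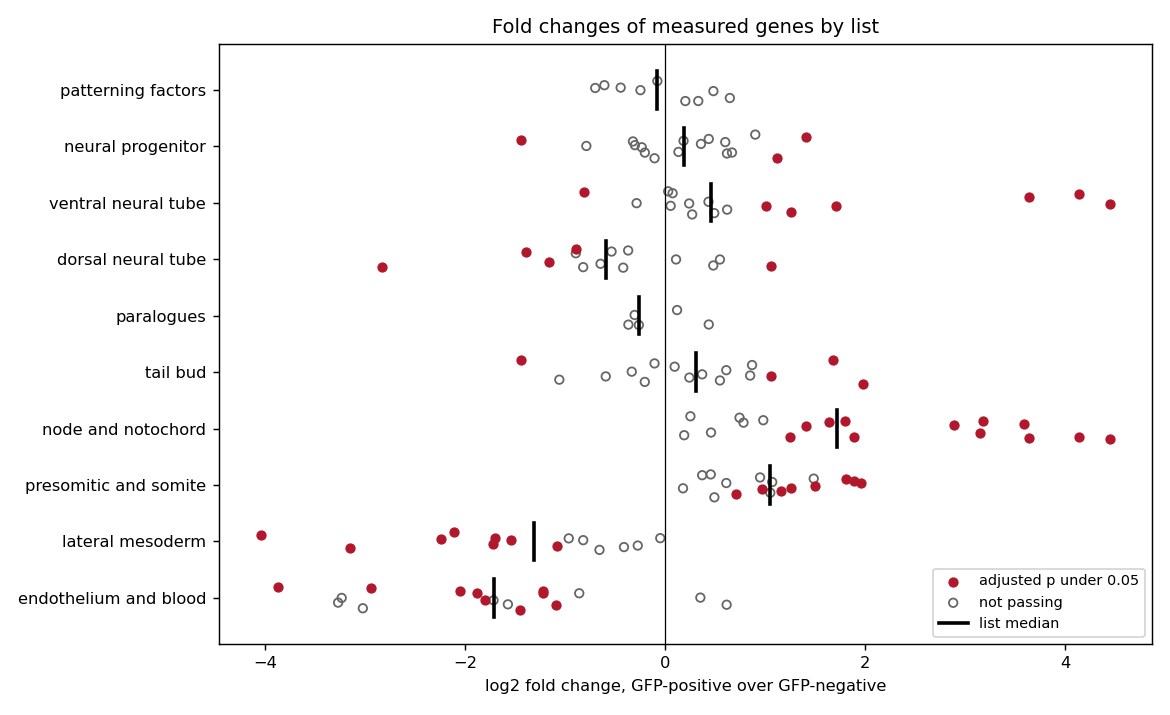
Log2 fold changes, GFP-positive over GFP-negative (horizontal axis), of the measured genes of 10 lists; filled red points passed at an adjusted p under 0.05 in the fit with group only, open points did not, and black bars are list medians. The patterning factors lie between -0.70 and 0.65 with no filled point, while node and notochord genes have a median of 1.72 and lateral mesoderm genes of -1.31. A gene in several lists is drawn in each.

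Marker lists of other cell types moved with the sorts. Of node and notochord markers 12 of 18 were higher and 0 lower, with summed intensities of 14726 to 19181 in GFP-positive cells against 2263 to 3239 in GFP-negative cells. Of presomitic and somite markers 8 of 17 were higher, with sums of 7533 to 10098 in GFP-positive cells against 2465 to 3385 in GFP-negative cells. Of gut endoderm markers 7 of 14 were higher and 1, Hhex, lower, with 4818 to 6624 in GFP-positive cells against 1031 to 1899 in GFP-negative cells. Of the 7 higher gut markers, Foxa1, Foxa2 and Krt19 are also in the node and notochord list. Without these 3 the gut sums overlapped, at 1679 to 4159 in GFP-positive cells against 933 to 1729 in GFP-negative cells.

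Lateral mesoderm, endothelial and blood markers ran the other way. Of lateral mesoderm markers 8 of 14 were lower, with sums of 586 to 936 in GFP-positive cells against 2920 to 6406 in GFP-negative cells. Of endothelial and blood markers 9 of 17 were lower, with 1584 to 7363 in GFP-positive cells against 14384 to 31749 in GFP-negative cells. Most of the GFP-negative sums came from the globin genes Hbb-y (7040 to 12489) and Hbb-bh1 (4653 to 9951). Neither of these passed in limma (adjusted p = 0.0656 and 0.0993). Of surface ectoderm markers 2 of 14 (Cdh1 and Krt8) were higher and 6 lower, and their sums were 5335 to 5891 in GFP-positive cells against 2700 to 3539 in GFP-negative cells. Without Krt8 and Krt18, which are also in the node and notochord list, the surface ectoderm sums overlapped, at 1179 to 1518 in GFP-positive cells against 1092 to 1458 in GFP-negative cells. Of germ cell markers 1 of 9, Prdm1, was lower, with sums of 226 to 421 in GFP-positive cells against 455 to 883 in GFP-negative cells. Neural progenitor genes summed to 10908 to 11895 in GFP-positive cells against 8886 to 10573 in GFP-negative cells. Among the called markers, Dand5, Uncx, Tbx5, Cd34, Gata3 and Dlx5 passed the filter only through the sort in which they were high. Intensities include background, so a sum above 0 does not show that a cell type was present in a sort. The part of these cell types in the members' values was not tested.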

How the data were processed

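The authors deposited 1-colour array intensities on a linear scale for the 6 samples, and the submitters' processing notes name GCOS 1.4. RNA was amplified over both cycles of an Affymetrix labelling kit, per the labels' protocols. A mean trimmed by 2% on both sides came to 150 on all 6 arrays, so they had been scaled alike. Detection calls were not used, and precision is limited by having 3 arrays a group. Of 45101 probe sets, 64 were controls, 34958 had 1 gene symbol in the platform annotation, 932 had several and 9211 were unnamed here.

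Intensities were taken to log2(value + 32). Probe sets at or above their array's 40th percentile on at least 3 arrays (27821) were fitted with limma 3.58.1 in R 4.3.3 (lmFit, eBayes with a variance trend). Each of 12628 genes was represented by its filtered probe set with the highest mean and refitted over genes, with Benjamini-Hochberg adjustment at 0.05. Fold changes of dim genes are understated by the offset. The fit was tested on simulated data. Arrays of 1 number came from 1 embryo pool, per the labels, and their deviations from group means correlated at 0.542, 0.286 and 0.436, so the pool was also fitted as a block. Without the block, p-values set the difference against the spread among arrays of a sort, from 3 pools of separate embryos. With the block, they set it against the spread of the differences within pools.

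The members and gene lists were chosen with earlier results of these data known. Named were every member and its probe sets, up to 4 passing genes of each pathway list (or, with none, the 2 largest changes), any gene that a small count consists of, and the 3 genes most like each member; of the marker lists, only counts, sums and the genes of some small counts are given. Alternatives were the offset, normalization, filter, variance model, mean over probe sets, pool block, and each array or pool left out.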

Additional observations from a re-analysis of the deposited data

How the results depend on the processing

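The counts of 0 members higher and 0 lower in limma were the same with offsets of 16 and 64, quantile normalization, no filter, a filter at the 60th percentile, no variance trend and the mean over probe sets. With the pool as a replicate block they were 1 and 2, and 3 and 3 when that fit also dropped pool 1. Leaving out single arrays or pools gave 0 to 2 higher and 0 to 3 lower, with 2 and 3 without pool 1 and 1 and 3 without the GFP-negative array of pool 1. Of 152 alternative values of single members, 126 kept direction and side of the threshold, 18 newly passed and 8 changed sign. None could cease to pass, because no member had passed in the main fit. Over left-out arrays and pools Sox2 ranged from -0.020 to 0.47 and Sox3 from -0.34 to 0.28. The 8 were Pax3 at -0.10 with the mean over probe sets, Sox2 at -0.020 without pool 3 and at -0.0028 without the GFP-negative array of pool 3, and Sox3 at 0.28 without pool 1, also with the block, at 0.20 without the GFP-positive array of pool 1, at 0.0077 without the GFP-negative array of pool 1 and at 0.02 without that of pool 2. The cause was not tested. The genes tested also differed, since the filter asked for 3 arrays throughout. Over left-out arrays and pools, neural progenitor genes gave 0 to 7 higher and 0 to 2 lower, ventral genes 1 to 6 and 0 to 2, dorsal genes 0 to 1 and 0 to 6, and tail bud genes 0 to 6 and 0 to 3; with the block these lists gave 5 and 2, 6 and 1, 1 and 6, and 5 and 3. Over all genes, 4 were higher and 0 lower without pool 2, 38 and 7 without pool 3, and 1389 and 1342 without the GFP-negative array of pool 1, against 372 and 216 with all arrays. With all arrays, the block changed the calls of Irx3, Pax6 and Olig3 among the members, and without pool 1 that of Pax3. Among marker lists the block gave 13 higher presomitic markers against 8, 15 lower endothelial and blood markers against 9, 3 lower germ cell markers against 1, and 4 higher surface ectoderm markers against 2.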
